A study of Mus musculus with 32 samples.

Results

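Lymphatic vessels were described here through 8 genes measured in a transplanted mouse sarcoma and in the tissue around it. The genes were the growth factors Vegfc and Vegfd (Figf on older lists), the activating factor Ccbe1, the receptor Flt4, the transcription factor Prox1, the surface proteins Lyve1 and Pdpn, and the chemokine Ccl21a. Members were chosen by name and not by measured values: array probes were matched to RefSeq symbols through their RefSeq identifiers, and the probe with the highest mean level over all arrays stood for the gene. All 8 genes were found, on 11 probes, among 45616 gene names on 56605 probes.

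Lymphatic capillaries drain fluid, cells and antigen from tissue. VEGF-C and VEGF-D are secreted as precursors, are matured with the help of the scaffold protein CCBE1, and signal through the receptor tyrosine kinase VEGFR-3, the product of Flt4, on lymphatic endothelium. PROX1 is the transcription factor that sets lymphatic endothelial identity. LYVE1, a hyaluronan receptor, and podoplanin (Pdpn), a mucin-like ligand of platelet CLEC-2, mark lymphatic endothelium, and CCL21 from lymphatic endothelium draws CCR7-bearing dendritic cells and T cells into the vessels. Outside lymphatic vessels, Lyve1 is made by some resident macrophages, and Pdpn by fibroblasts and many tumor cells. Tumors can enlarge lymphatic vessels at their margin.

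MCG 101 is a transplantable mouse sarcoma, and its cells were implanted in mice that were EP2+/+ (wild type) or EP2-/- (knockout) for Ptger2, the gene of the prostaglandin E2 receptor EP2. The implanted cells were the same line in every host, so the genotype labels refer to the host. Dissected tumor and the tumor stroma around it gave 4 groups of 8 one-colour arrays: EP2+/+ stroma, EP2-/- stroma, EP2+/+ tumor and EP2-/- tumor, each with 4 arrays labelled female and 4 labelled male. Host strain, age, tumor size and the type of knockout allele were not given in the sources used here. Whether the arrays of a group came from separate animals is not stated, and p-values then measure only the spread between these samples.

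All levels below are log2 intensities relative to the 75th percentile of the array, so that 0 is the level of that percentile. A gene was called at a limma Benjamini-Hochberg adjusted p under 0.05 over all genes tested. Between 47.7% and 75.1% of probes were well above background on an array, and no spot was saturated. The single Ptger2 probe was no lower in the arrays labelled EP2-/-, at -3.84, -3.20 and -2.38 (lowest, median, highest) in EP2-/- stroma against -5.65, -4.26 and -2.58 in EP2+/+ stroma, and at -5.27, -3.73 and -3.08 in EP2-/- tumor against -6.18, -4.81 and -3.46 in EP2+/+ tumor. Whether this probe lies in the deleted part is not given, so it does not check the labels, and EP2+/+ and EP2-/- stand below for arrays labelled so. Sex-linked genes went against the sex label on 3 of 16 stroma arrays and 2 of 16 tumor arrays. EP2+/+ stroma arrays 65 and 82 stood apart from the other stroma arrays on the first principal component, at -68.53 and -113.08, within the tumor arrays' range of -160.56 to -30.82. Comparisons are therefore given with and without these arrays where it matters. These are tissue extracts, in which fewer cells of a type and less RNA per cell cannot be told apart.

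Stroma was set against tumor first, a comparison of the margin with the mass. In stroma, Lyve1, Ccl21a, Prox1 and Vegfc were higher than in tumor and Pdpn was lower, while Vegfd and Ccbe1 were not called. Of 7 genes tested, 5 were called. Across all genes tested 62.8% were called in this comparison, 25.8% higher and 37.1% lower in stroma, so that 5 of 7 is near the background. Prox1, 1 of the 5, was well above background on 1 of 16 tumor arrays and entered the test through stroma; without it 4 of 6 were called. The median difference of those 6 genes was 0.37, against -0.14 over all genes. Marker genes of other tissue were higher in stroma as well: 10 of 10 skeletal muscle, 7 of 8 adipocyte, 7 of 7 Schwann cell, 8 of 8 smooth muscle and pericyte, 10 of 10 blood endothelium and 11 of 12 macrophage genes passed, with median differences of 6.38, 4.52, 3.06, 2.72, 1.43 and 1.78, and their part in the lymphatic differences was not tested.

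**Figure D1:**
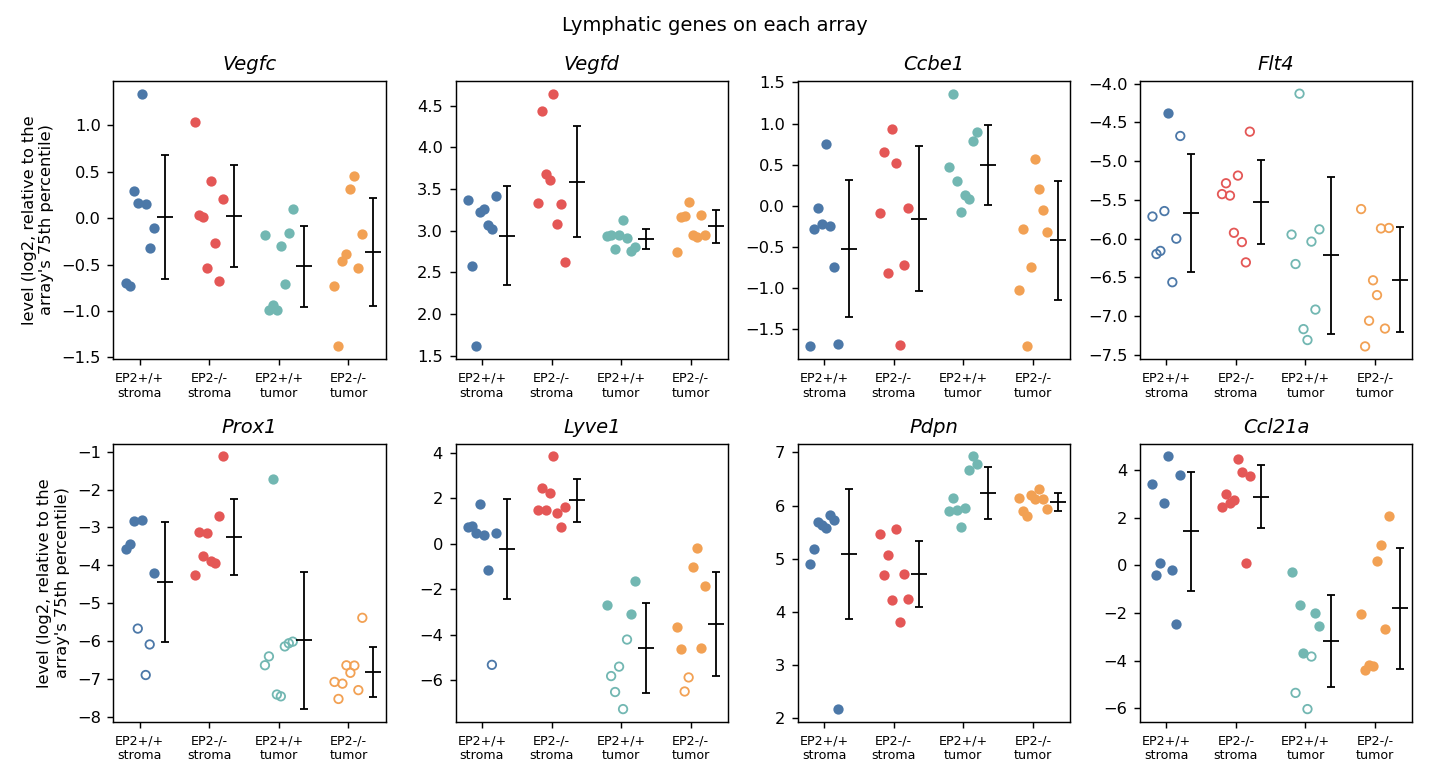
Level of each lymphatic gene (log2, relative to the 75th percentile of the array) on every array of the 4 groups. Filled points were well above background and open points were not, and the bar beside each group is the mean with its SD. Lyve1, Ccl21a and Prox1 are mostly higher in stroma, Pdpn is higher in tumor, and Flt4 is well above background on 1 array.

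Lyve1 showed the widest stroma to tumor difference among the 8 genes. Its level was -5.33, 0.46 and 1.75 (lowest, median, highest) in EP2+/+ stroma and 0.73, 1.55 and 3.83 in EP2-/- stroma. In tumor it was -7.28, -4.82 and -1.64 in EP2+/+ hosts and -6.50, -4.12 and -0.20 in EP2-/- hosts. The lowest stroma value, which was not above background, came from array 82, and through it alone stroma and tumor overlapped in EP2+/+ hosts; array 65 was next at -1.15. In EP2-/- hosts they did not overlap. Stroma was higher by 4.90 ± 0.58 (SE, n = 16 against 16, 29.8-fold, limma adjusted p = 1.29e-07). The difference was 4.35 ± 0.82 in EP2+/+ hosts (limma adjusted p = 0.000611) and 5.44 ± 0.82 in EP2-/- hosts (limma adjusted p = 3.86e-06). Lyve1 was well above background on 15 of 16 stroma arrays but on 9 of 16 tumor arrays, so the tumor mean includes values near background.

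Ccl21a was nearly as different. In EP2+/+ stroma its level was -2.45, 1.37 and 4.57 (lowest, median, highest), and in EP2-/- stroma 0.08, 2.88 and 4.45. Tumor values were -6.04, -3.11 and -0.27 in EP2+/+ hosts and -4.40, -2.35 and 2.07 in EP2-/- hosts. All 16 stroma arrays lay above the tumor median, yet the groups overlapped in hosts of either genotype. Stroma was higher by 4.64 ± 0.67 (SE, n = 16 against 16, 25-fold, limma adjusted p = 1.69e-06), and by 4.61 ± 0.95 and 4.68 ± 0.95 in EP2+/+ and EP2-/- hosts (limma adjusted p = 0.00129 and 0.000141). Tumor values were themselves spread, with an SD of 1.93 in EP2+/+ and 2.54 in EP2-/- hosts. Ccl21a was well above background on all 16 stroma arrays but on 13 of 16 tumor arrays, and on 5 of 8 in EP2+/+ tumor. The tumor mean thus includes values near background.

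Mouse Ccl21 exists as several near-identical gene copies, and the probe may not separate them. Probes for the copies Gm1987 and Gm13304 followed the Ccl21a probe over the 16 stroma arrays with r = 0.999 and r = 0.983. Gm1987 had medians of 2.79 and 4.41 in EP2+/+ and EP2-/- stroma against -1.99 and -0.87 in tumor, and Gm13304 of 3.51 and 4.84 against 1.76 and 2.02. The Gm13304 probe thus differed less between stroma and tumor than the Ccl21a probe did, in hosts of either genotype. The Ccl21a values may include signal of the copies, and their size is that of this probe and not of the gene family. The 250 bases before the start of Ccl21a and of Gm13304 (RefSeq, GRCm38.p6) are shown because they bear on how alike the copies are. In an end-to-end alignment 247 of 249 bases were identical (99.2%), and capitals mark the 2 that differ. Ccl21a lies at chr4:42773992-42774241 on the minus strand and Gm13304 at chr4:42114537-42114786 on the plus strand.
Ccl21a: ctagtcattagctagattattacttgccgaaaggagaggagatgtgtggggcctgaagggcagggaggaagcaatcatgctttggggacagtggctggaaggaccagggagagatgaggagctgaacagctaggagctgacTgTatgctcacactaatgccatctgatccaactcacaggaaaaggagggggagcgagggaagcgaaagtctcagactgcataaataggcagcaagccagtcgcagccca
Gm13304: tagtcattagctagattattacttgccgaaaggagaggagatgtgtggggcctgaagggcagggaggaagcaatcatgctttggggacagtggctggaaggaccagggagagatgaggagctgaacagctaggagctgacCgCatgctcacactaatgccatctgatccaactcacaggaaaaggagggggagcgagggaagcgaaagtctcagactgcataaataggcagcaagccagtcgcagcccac

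Prox1, the lymphatic identity factor, was dim, and in tumor it was mostly not measured above background. It was well above background on 13 of 16 stroma arrays and on 1 of 16 tumor arrays, so it passed the filter on dim genes through stroma. Its level was -6.90, -3.89 and -2.81 (lowest, median, highest) in EP2+/+ stroma, -4.25, -3.46 and -1.12 in EP2-/- stroma, -7.46, -6.27 and -1.71 in EP2+/+ tumor and -7.53, -6.96 and -5.38 in EP2-/- tumor. The high EP2+/+ tumor value was array 5, the only tumor array on which Prox1 was well above background. That array stood apart in quality as well, with 75.1% of its probes well above background (62.5% on the next highest of the 32 arrays) and 483 outlier spots (175 on the next), and the part of this in its Prox1 value was not tested. Over all hosts the fit called stroma higher (limma adjusted p = 2.88e-05), but no size is given, since nearly all tumor values lie at background. In EP2+/+ hosts stroma overlapped tumor through stroma arrays 65 and 82 and through tumor array 5, while in EP2-/- hosts the groups did not overlap. As no EP2-/- tumor array was well above background there, stroma was at least 2.96-fold higher: the stroma mean was set against the lowest signal well above background on each tumor array, or against the probe's own value where that was higher. The fitted means were -3.24 and -6.82 (limma adjusted p = 4.07e-05). In EP2+/+ hosts the fitted means were -4.44 and -5.98 and the difference was not called (limma adjusted p = 0.0716). It was called without tumor array 5 (adjusted p = 0.00484), without stroma arrays 65 and 82 (adjusted p = 0.0072) and without stroma 65, 68 or 82 alone (adjusted p = 0.0285, 0.0378 and 0.0458), again against tumor values at background.

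Flt4, the VEGF-C and VEGF-D receptor, was well above background on 1 of 32 arrays, EP2+/+ stroma 4, at -4.38. It was not tested in any comparison, and no fold is given. Its median was -5.86 and -5.44 in EP2+/+ and EP2-/- stroma and -6.18 and -6.63 in the corresponding tumors, values that lie at background. At this signal a change in receptor transcript was not detectable.

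The 250 bases before the start of Prox1 (RefSeq, GRCm38.p6, chr1:190170828-190171077, minus strand) are shown beside those of Pdpn (chr4:143299565-143299814, minus strand), because these genes differed between the tissues in opposite directions. Core motifs were searched on both strands and are in capitals. The TATA box letters TATAAA stood 1 time in the Prox1 window and in 12.4% of 32851 promoter windows of this length. The GC box letters GGGCGG stood 2 times in the Prox1 window and in 32.7% of all windows. The Sox letters AACAAAG stood 1 time in the Pdpn window and in 5.03% of all windows. The AP-1 letters TGANTCA stood in 6.75% of all windows and in none of the windows printed here. No matches overlapped, and a match on the other strand appears as its reverse complement. These are matches to letters and not binding sites.
Prox1: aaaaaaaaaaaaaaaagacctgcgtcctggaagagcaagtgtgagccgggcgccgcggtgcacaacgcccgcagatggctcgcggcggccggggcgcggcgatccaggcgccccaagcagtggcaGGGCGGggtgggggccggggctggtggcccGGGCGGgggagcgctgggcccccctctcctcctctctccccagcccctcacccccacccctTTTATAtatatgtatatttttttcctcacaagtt
Pdpn: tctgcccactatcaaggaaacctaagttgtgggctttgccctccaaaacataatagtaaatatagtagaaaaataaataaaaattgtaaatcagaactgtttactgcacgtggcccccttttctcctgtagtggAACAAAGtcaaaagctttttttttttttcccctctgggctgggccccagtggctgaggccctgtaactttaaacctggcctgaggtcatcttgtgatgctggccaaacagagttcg

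Pdpn ran opposite to the other vessel markers. Its level was 2.17, 5.61 and 5.82 (lowest, median, highest) in EP2+/+ stroma and 3.81, 4.70 and 5.55 in EP2-/- stroma, against 5.59, 6.04 and 6.92 in EP2+/+ tumor and 5.81, 6.12 and 6.32 in EP2-/- tumor. It was well above background on all 32 arrays. All 16 stroma arrays lay below the tumor median, and in EP2-/- hosts stroma and tumor did not overlap. Stroma was lower by 2.38-fold (difference -1.25 ± 0.26 SE, n = 16 against 16, limma adjusted p = 0.000137). In EP2+/+ and EP2-/- hosts the differences were -1.15 ± 0.36 and -1.35 ± 0.36 (limma adjusted p = 0.0203 and 0.00227). Groups that do not overlap, with stroma lower, made up 18.3% of all genes tested in EP2-/- hosts, and with stroma higher, as for Lyve1 and Prox1, 12.8%. In EP2+/+ hosts, where no lymphatic gene showed this, the shares were 0.616% and 0.129%, and over all hosts 0.0664% and 0%. Over all hosts, cell cycle genes were called lower in stroma as well, 10 of 10 with a median of -2.57, against 37.1% of all genes. Within EP2+/+ hosts Mcm2 passed (limma adjusted p = 0.0274). The other cell cycle genes did not pass there (limma adjusted p from 0.0505 to 0.225).

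The growth factor genes differed little. Vegfc lay at -0.73, 0.03 and 1.34 (lowest, median, highest) in EP2+/+ stroma, -0.68, 0.02 and 1.04 in EP2-/- stroma, -0.98, -0.51 and 0.10 in EP2+/+ tumor and -1.38, -0.42 and 0.46 in EP2-/- tumor. The groups overlapped throughout, with 12 of 16 stroma arrays above the tumor median. Stroma was 1.38-fold higher over all hosts (0.46 ± 0.19 SE, n = 16 against 16, limma adjusted p = 0.0334), and 0.53 ± 0.26 and 0.39 ± 0.26 in EP2+/+ and EP2-/- hosts, where it was not called (limma adjusted p = 0.119 and 0.209). The call over all hosts was lost when any of 9 single arrays was left out: EP2+/+ stroma 4, 5 or 68 (adjusted p = 0.0614, 0.0589 and 0.0543), EP2-/- stroma 12, 15 or 99 (0.0627, 0.0567 and 0.0509), EP2+/+ tumor 65 (0.0559), EP2-/- tumor 95 (0.0589) and 1 further EP2-/- tumor array (0.0601). Without EP2+/+ stroma 65 and 82 the difference in EP2+/+ hosts passed (0.71, adjusted p = 0.0475). A further Vegfc probe was well above background on 8 of 32 arrays and gave 0.62 ± 0.34 (limma adjusted p = 0.112).

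Vegfd was well above background on all 32 arrays, and tumor arrays were closely grouped. Its level was 1.61, 3.15 and 3.42 (lowest, median, highest) in EP2+/+ stroma, 2.63, 3.47 and 4.64 in EP2-/- stroma, 2.76, 2.93 and 3.13 in EP2+/+ tumor and 2.74, 3.06 and 3.35 in EP2-/- tumor. The groups overlapped, and the SD was 0.60 and 0.67 in EP2+/+ and EP2-/- stroma but 0.12 and 0.20 in tumor. Stroma minus tumor was 0.29 ± 0.17 over all hosts (limma adjusted p = 0.139) and passed without EP2+/+ stroma 5 (0.38, adjusted p = 0.0329). In EP2-/- hosts it was 0.54 ± 0.24 with a limma adjusted p of 0.054, just outside the threshold. That result depends on the scaling: with the 75th percentile taken over single spots it was 0.56 (adjusted p = 0.0443) and passed, and it passed under 10 of 16 alternatives that left out no single array. A second Vegfd probe gave 0.75 ± 0.28 in EP2-/- hosts (limma adjusted p = 0.0217) and 0.47 ± 0.20 over all hosts (adjusted p = 0.0399). The 250 bases before the Vegfd start (RefSeq, GRCm38.p6, chrX:164373272-164373521, plus strand) are shown beside those of Vegfc (chr8:54077282-54077531, plus strand), since these ligands share a receptor. Of the same motifs, in capitals, the Vegfd window held 1 TATA box match and the Vegfc window 2 GC box matches.
Vegfd: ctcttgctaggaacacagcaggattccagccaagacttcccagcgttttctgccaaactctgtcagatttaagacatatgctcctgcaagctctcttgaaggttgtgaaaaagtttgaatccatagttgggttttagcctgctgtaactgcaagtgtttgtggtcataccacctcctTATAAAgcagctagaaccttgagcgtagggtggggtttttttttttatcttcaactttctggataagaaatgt
Vegfc: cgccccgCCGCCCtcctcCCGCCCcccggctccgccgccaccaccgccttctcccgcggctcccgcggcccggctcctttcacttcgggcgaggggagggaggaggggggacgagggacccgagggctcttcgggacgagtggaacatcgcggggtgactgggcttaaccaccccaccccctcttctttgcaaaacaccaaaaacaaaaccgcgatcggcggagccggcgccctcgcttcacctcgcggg

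Ccbe1, whose product helps to activate VEGF-C, was the member whose stroma to tumor difference had opposite signs in EP2+/+ and EP2-/- hosts, although the test of that change was not passed (limma adjusted p = 0.16). It lay at -1.71, -0.27 and 0.75 (lowest, median, highest) in EP2+/+ stroma and at -0.08, 0.39 and 1.36 in EP2+/+ tumor. In EP2-/- hosts it was -1.69, -0.06 and 0.94 in stroma and -1.71, -0.30 and 0.57 in tumor. Stroma was lower in EP2+/+ hosts by 2.02-fold (-1.02 ± 0.35 SE, n = 8 against 8, limma adjusted p = 0.0323), and 0.27 ± 0.35 higher without being called in EP2-/- hosts (adjusted p = 0.536). A second Ccbe1 probe gave -0.95 ± 0.36 (limma adjusted p = 0.0462) and 0.16 ± 0.36 (adjusted p = 0.727). The EP2+/+ call was lost without stroma array 1 (-0.82, adjusted p = 0.0848), without stroma array 9 (-0.82, adjusted p = 0.085), without tumor arrays 9, 45 or 82 in turn (adjusted p = 0.0548, 0.0739 and 0.0568), and without the 3 stroma arrays of mismatched sex label (-0.82, adjusted p = 0.0974). The comparisons within EP2+/+ and within EP2-/- hosts called 30.2% of all genes (11.9% higher and 18.3% lower in stroma) and 59.4% (26.3% higher and 33% lower). Of 7 lymphatic genes, 2 were called higher and 2 lower in EP2+/+ hosts, and 3 higher, Prox1 among them, and 1 lower in EP2-/- hosts.

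**Figure D2:**
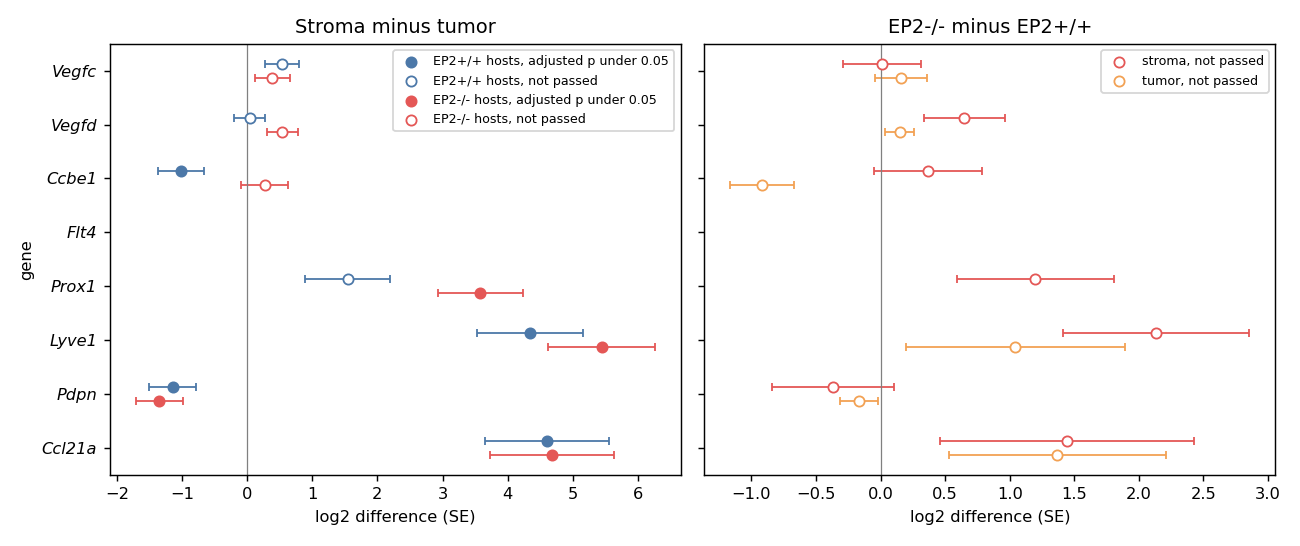
Differences in log2 level with their SE for each lymphatic gene, stroma minus tumor in EP2+/+ and EP2-/- hosts (left) and EP2-/- minus EP2+/+ in stroma and in tumor (right). Filled points passed an adjusted p of 0.05. Flt4 was not tested, nor was Prox1 between genotypes in tumor; the Prox1 points on the left are fitted against tumor values mostly at background and are no measured sizes. No lymphatic gene passed between genotypes.

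The genotype comparison asked whether the host's EP2 receptor altered these genes. In stroma, no lymphatic gene was called among the 7 tested. Limma called 0% of 24773 genes in this comparison (smallest adjusted p = 0.113), although 28.2% had an unadjusted p under 0.05, against 3.31% in tumor. Groups that do not overlap made up 0.0161% of genes with EP2-/- stroma higher and 0.113% with it lower, and no lymphatic gene was among them. Lyve1 had the smallest p of the 7 (0.00968 before adjustment). Its difference was 2.13 ± 0.72 (SE, 4.39-fold, limma adjusted p = 0.122), and all 8 EP2-/- arrays lay above the EP2+/+ median. Within each of the 5 slides that held both genotypes EP2-/- was above EP2+/+, by 1.005 to 3.013. These slides held only 1 to 3 EP2-/- and 1 or 2 EP2+/+ stroma arrays each. The largest differences, 2.634 and 3.013, were on the slides with EP2+/+ stroma 65 and 82. Ccl21a, Prox1 and Vegfd had differences of 1.44 ± 0.98, 1.20 ± 0.61 and 0.65 ± 0.31 (limma adjusted p = 0.319, 0.201 and 0.185). Ccbe1, Vegfc and Pdpn had 0.37 ± 0.42, 0.01 ± 0.30 and -0.37 ± 0.47 (limma adjusted p = 0.554, 0.978 and 0.6).

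These stroma values depended on single arrays. Without EP2+/+ stroma 65 and 82 the Lyve1 difference was 1.22 (limma adjusted p = 0.64), that of Ccl21a was 0.07 (adjusted p = 0.984), that of Prox1 0.45 (adjusted p = 0.839), and that of Pdpn turned to 0.11 (adjusted p = 0.96). In the other direction, Lyve1 passed without EP2+/+ stroma 9 (2.45, adjusted p = 0.0191), without EP2+/+ stroma 4 (2.44, adjusted p = 0.033) and without the 3 stroma arrays of mismatched sex label (2.80, adjusted p = 0.0334). Pdpn passed without EP2+/+ stroma 9 (-0.81, adjusted p = 0.0323). In those same fits 34.0%, 21.0% and 23.0% of all genes passed, against 0% with all arrays kept. Macrophage genes, 12 of 12 measured, were not called and had a median genotype difference of 1.33 in stroma. Their mean level ran from 0.46 to 3.45 in EP2+/+ and from 2.70 to 4.92 in EP2-/- stroma, and 10 of the 12 were well above background on all 32 arrays and none at background on every array. Skeletal muscle and adipocyte genes had medians of 1.59 and 1.70, and cell cycle genes of -1.48, again without a call. The mean level of the cell cycle list ran from -4.08 to 3.78 in EP2+/+ and from -1.15 to 2.46 in EP2-/- stroma. Their part in the Lyve1 and Pdpn differences was not tested.

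In tumor, 0% of 23732 genes were called between genotypes, and none of the 6 lymphatic genes tested. Ccbe1 stood at 0.50 ± 0.49 in EP2+/+ and -0.42 ± 0.72 in EP2-/- tumor (SD, n = 8 each). The difference was -0.92 ± 0.25 (SE, limma adjusted p = 0.976, 0.00225 before adjustment), with 7 of 8 EP2-/- arrays below the EP2+/+ median. On all 3 slides that held both genotypes EP2-/- was lower, with differences from -1.454 to -0.081. Each of these slides held 1 EP2-/- tumor array, set against 1, 2 or 3 EP2+/+ tumor arrays. Ccbe1 did not pass the correction over all genes. A second Ccbe1 probe gave -0.89 ± 0.24 (adjusted p = 0.976). Ccl21a and Lyve1 had differences of 1.37 ± 0.84 and 1.04 ± 0.85, and Vegfc, Vegfd and Pdpn of 0.16 ± 0.20, 0.15 ± 0.11 and -0.17 ± 0.15 (limma adjusted p = 0.976 for each).

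The difference of the genotype effects between tissues was tested directly, and again 0% of 27096 genes passed (smallest limma adjusted p = 0.117; 21.1% at an unadjusted p under 0.05). For Ccbe1 it was 1.28 ± 0.50 (SE, adjusted p = 0.16), for Lyve1 1.09 ± 1.16 (adjusted p = 0.587) and for Vegfd 0.50 ± 0.34 (adjusted p = 0.384). Prox1 is given no value here, because its tumor values lie at background. Vegfc, Pdpn and Ccl21a lay between -0.20 and 0.07 (adjusted p from 0.837 to 0.979). The Ccbe1 value passed without EP2+/+ stroma 4 (1.49, adjusted p = 0.0491), a fit in which 9.34% of all genes passed.

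How the lymphatic genes varied together was followed over the 16 arrays of each tissue, 56 relations in all. In tumor, Lyve1 and Ccl21a varied together (r = 0.804, permutation p = 0.00021, adjusted p = 0.00588; rho = 0.741, permutation p = 0.0015, adjusted p = 0.028). Without the 2 arrays farthest from the Lyve1 median r was 0.721, and within EP2+/+ and EP2-/- hosts it was 0.620 and 0.904. In stroma the same pair had r = 0.728 (permutation p = 0.00129, adjusted p = 0.0218) but rho = 0.368 (permutation p = 0.16, adjusted p = 0.28), and r was 0.441 without the 2 farthest arrays and 0.376 without EP2+/+ stroma 65 and 82. Within EP2+/+ and EP2-/- stroma, 8 arrays each, r was 0.688 and 0.662. Vegfc and Lyve1 had r = 0.693 in tumor (permutation p = 0.00299, adjusted p = 0.0335; rho = 0.662, permutation p = 0.00654, adjusted p = 0.0732; 0.684 without the 2 farthest arrays) and r = 0.151 in stroma (permutation p = 0.557, adjusted p = 0.736; rho = 0.122, permutation p = 0.649, adjusted p = 0.706). In tumor, Lyve1 was well above background on 9 of 16 arrays and Ccl21a on 13 of 16. The tumor relations above therefore include values near background. In stroma, Prox1 passed with none of the other genes. With Lyve1 it had r = 0.506 and rho = 0.168 (permutation adjusted p = 0.292 and 0.63), and r = -0.137 without EP2+/+ stroma 65 and 82. With Ccl21a it had r = 0.418 and rho = 0.268 (permutation adjusted p = 0.292 and 0.421), and r = -0.084 without those arrays. Relations of Flt4, and of Prox1 in tumor, are left out because their values lie at background.

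The same arrays were compared with the mean level of each marker list, 96 relations in stroma, a comparison chosen after the values were seen. Lyve1 went with the macrophage list (r = 0.804, permutation p = 0.00021, adjusted p = 0.00403; rho = 0.711, permutation p = 0.00269, adjusted p = 0.0278). Its r was 0.559 without the 2 farthest arrays, 0.717 without EP2+/+ stroma 65 and 82, and 0.681 and 0.832 within EP2+/+ and EP2-/- hosts. Skeletal muscle, Schwann cell and adipocyte lists also passed for Lyve1 by r (0.738, 0.714 and 0.682; adjusted p = 0.0289, 0.0329 and 0.0229) but not by rho, and r was -0.084, -0.049 and 0.358 without arrays 65 and 82. With the lymphatic pathway list, which holds none of the 8 genes, Lyve1 had r = 0.686 (permutation p = 0.00465, adjusted p = 0.0289) and rho = 0.583 (permutation p = 0.0191, adjusted p = 0.0799), and r was 0.358 without arrays 65 and 82. Pdpn went with the cell cycle list (r = 0.878, permutation p = 6e-05, adjusted p = 0.00403; rho = 0.847, permutation p = 0.00014, adjusted p = 0.00672), at 0.735 without the 2 farthest arrays and 0.920 and 0.736 within EP2+/+ and EP2-/- hosts. Skeletal muscle, Schwann cell, and smooth muscle and pericyte lists passed for Pdpn by rho (-0.759, -0.685 and -0.650, permutation adjusted p = 0.025, 0.0307 and 0.0384). They did not pass by r (-0.601, -0.513 and -0.501, permutation adjusted p = 0.0777, 0.126 and 0.125).

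Vegfc went with the fibroblast list (r = 0.722, permutation p = 0.00158, adjusted p = 0.0169; rho = 0.728, permutation p = 0.0019, adjusted p = 0.0278), at 0.515 without the 2 farthest arrays and 0.853 and 0.808 within hosts of either genotype. The lymphatic pathway and lymph node lists passed for Vegfc too (r = 0.660 and 0.642, adjusted p = 0.0302 and 0.0316). Ccbe1 had r = 0.662 with the fibroblast list (permutation p = 0.00528, adjusted p = 0.0298; rho = 0.673, permutation p = 0.00545, adjusted p = 0.0349), but 0.887 within EP2+/+ and 0.295 within EP2-/- hosts. Ccl21a went with many lists: 8 of 12 passed by r and 6 of them by rho as well. The highest r was with the adipocyte list (r = 0.841, permutation p = 0.00015, adjusted p = 0.00403; rho = 0.826, permutation p = 8e-05, adjusted p = 0.00672), at 0.717 without the 2 farthest arrays, 0.960 within EP2+/+ and 0.311 within EP2-/- hosts. The Schwann cell list had r = 0.814 (adjusted p = 0.00403; rho = 0.782, adjusted p = 0.0208), with 0.308 within EP2-/- hosts. The lymphatic pathway list had r = 0.804 (adjusted p = 0.00403; rho = 0.703, adjusted p = 0.0278), with 0.805 and 0.653 within EP2+/+ and EP2-/- hosts. Mesothelium, smooth muscle and pericyte, and cell cycle lists passed at r = -0.737, 0.691 and -0.620. Their r was -0.817, 0.816 and -0.642 within EP2+/+ hosts but -0.172, -0.05 and -0.204 within EP2-/- hosts. Of the 6 mesothelium genes, 2 were well above background on no array and 1 on all arrays. Vegfd had r = 0.684 with the adipocyte list (permutation p = 0.0031, adjusted p = 0.0229; rho = 0.650, permutation p = 0.00752, adjusted p = 0.0384) and 0.490 without the 2 farthest arrays. The mesothelium list passed for Vegfd by rho (-0.756, permutation adjusted p = 0.0252) but not by r (-0.605, permutation adjusted p = 0.0534). For Prox1, 4 of 12 lists passed by r, and 2 of them by rho as well. One of these was the blood endothelium list (r = 0.715, permutation p = 0.00179, adjusted p = 0.0172; rho = 0.712, permutation p = 0.00274, adjusted p = 0.0278), at 0.716 without the 2 farthest arrays and 0.562 without arrays 65 and 82. The other was the smooth muscle and pericyte list (r = 0.665, adjusted p = 0.0289; rho = 0.647, adjusted p = 0.0384), at 0.717 within EP2+/+ but 0.196 within EP2-/- hosts, and 0.444 without arrays 65 and 82. Skeletal muscle and Schwann cell lists had a higher r (0.790 and 0.742, adjusted p = 0.0122 and 0.0157), but their rho did not pass (0.456 and 0.603, adjusted p = 0.183 and 0.0677). With the lymphatic pathway list Prox1 did not pass (r = 0.506, permutation adjusted p = 0.121, rho = 0.368, adjusted p = 0.278). Its r with that list was 0.484 and -0.06 within EP2+/+ and EP2-/- hosts, and 0.193 without arrays 65 and 82.

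**Figure D3:**
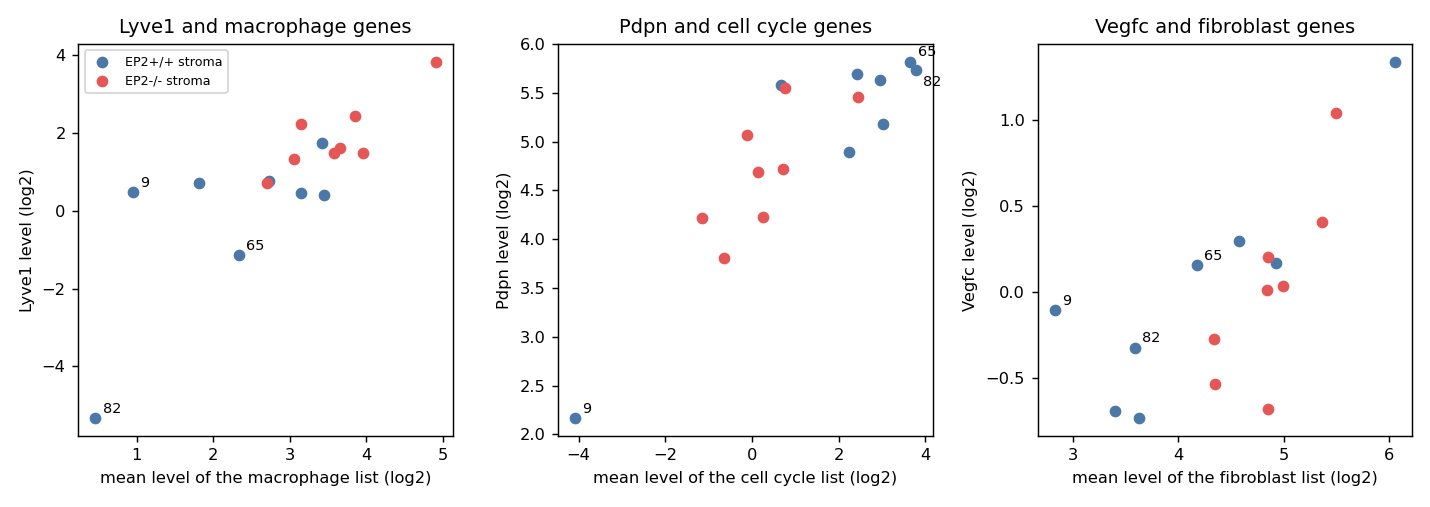
Level of Lyve1, Pdpn and Vegfc (log2) on the 16 stroma arrays against the mean level of the macrophage, cell cycle and fibroblast lists, with EP2+/+ and EP2-/- arrays in blue and red. EP2+/+ arrays 9, 65 and 82 are numbered: array 82 is lowest in Lyve1 and in macrophage genes, and array 9 is lowest in Pdpn and in cell cycle genes.

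Genes of most like pattern were sought among 15099 other named genes over the 16 stroma arrays. For Lyve1 they were Cd163 (r = 0.965), Cd209d (0.949) and Cd209b (0.943), a scavenger receptor of macrophages and a pair of C-type lectins. For Ccl21a they were its copies Gm1987 and Gm13304 and, at r = 0.962, Mmrn1, which is made by lymphatic endothelium and platelets. For Prox1 they were Lrrn1 (0.951), Kcnn3 (0.940) and Rap1gap2 (0.939), and for Pdpn Tpm3 (0.963), Tcirg1 (0.962) and Il13ra1 (0.962). Vegfc was followed by Nfatc4 (0.933), AI661453 (0.925) and Epb41l3 (0.914), Ccbe1 by Plk2 (0.810), Cabyr (0.787) and Slfn1 (0.782), and Vegfd by Mtss1 (0.778), Pfkfb2 (0.767) and Retn (0.760). Without the 2 arrays farthest from the gene's median, r fell to 0.487, 0.585 and 0.544 for the 3 genes beside Vegfd. It ran from 0.706 to 0.801 for those beside Ccbe1, 0.753 to 0.829 for Lyve1, 0.780 to 0.881 for Vegfc, 0.869 to 0.899 for Prox1, 0.909 to 0.951 for Pdpn and 0.925 to 0.998 for Ccl21a. The likeness is a description over the same 16 arrays.

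A list of 55 other genes of lymphatic growth and function placed the 8 genes in context. Of 51 tested, 27 were higher and 12 lower in stroma than in tumor, where 25.8% and 37.1% of all genes tested were, and the median difference was 0.85 against -0.14 over all genes. The counts by role below stand against the same shares. All these counts include genes that were dim in tumor and may have entered the test through stroma. Within EP2-/- hosts, Reln and Fat4 were well above background on 8 of 8 stroma arrays but on 1 of 8 tumor arrays. The counts were not repeated without such genes and are not read as a result about lymphatic vessels. Of 10 receptor genes 7 were higher and none lower, among the first Itga9, an integrin subunit of lymphatic valves (1.86 ± 0.20 SE, limma adjusted p = 6.24e-08). Of 15 lymphatic endothelial or junction genes 10 were higher and 3 lower. Within EP2-/- hosts, Reln, made by collecting lymphatics, was higher in stroma than in tumor (limma adjusted p = 2.91e-06). The means were -0.91 and -5.99. Reln was well above background on 8 of 8 stroma arrays but 1 of 8 tumor arrays there, so no size is given. The call stands against tumor values mostly at background. Efnb2, the ephrin of arteries and lymphatic valves, was lower over all hosts (-1.82 ± 0.23, limma adjusted p = 2.35e-07). Of 9 transcription factors 4 were higher and 4 lower: Foxc2, Foxc1 and Gata2, of lymphatic valve and collecting vessel development, were lower by a difference of -2.91, -1.78 and -1.23 (limma adjusted p = 1.82e-06, 1.38e-07 and 5.41e-07). The chemokines Ccl19 and Cxcl12 were higher by 4.15 and 3.65 (limma adjusted p = 7.89e-08 and 9.56e-08). Ccl19 was well above background on 9 of 16 tumor arrays. Of 10 growth factor and processing genes 2 were higher, among them Svep1, a matrix protein needed for lymphatic remodelling (4.76 ± 0.53, limma adjusted p = 6.92e-08), and 5 lower. Of the 4 podoplanin receptor signalling genes 2 were higher.

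**Figure D4:**
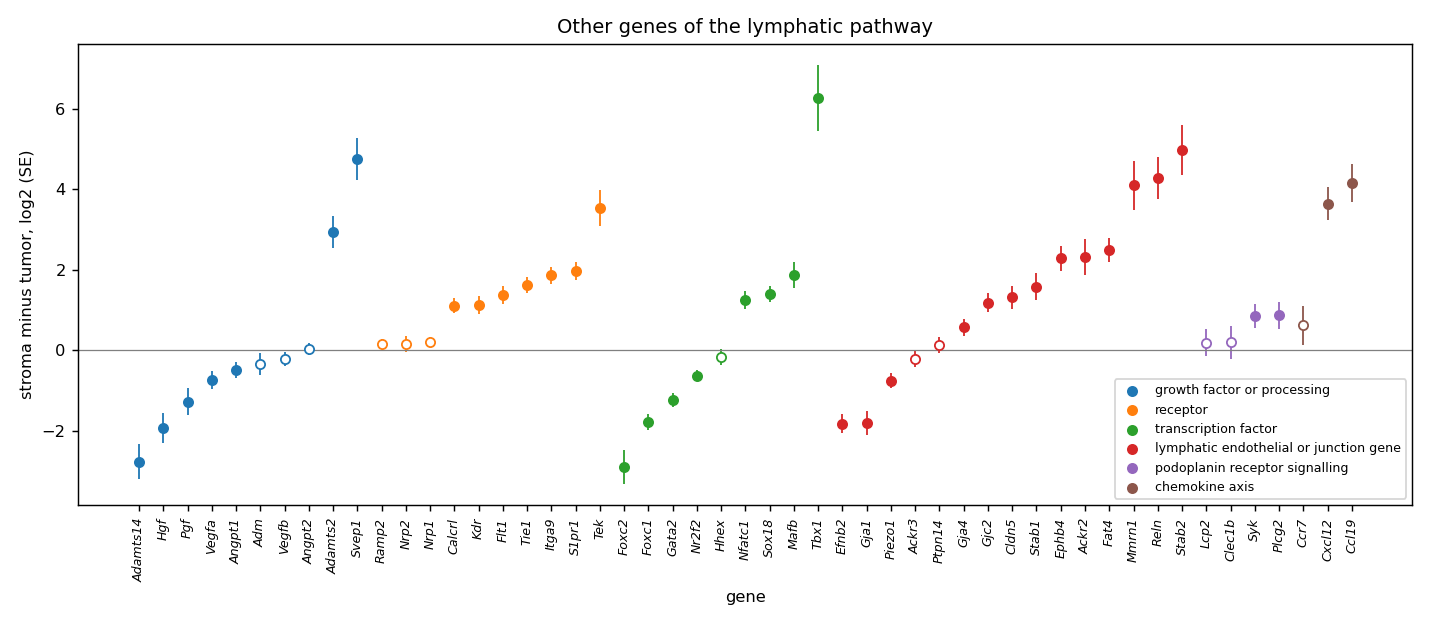
Stroma minus tumor difference (log2, with SE) for the 51 tested genes of the lymphatic pathway list, by role. Filled points passed an adjusted p of 0.05. Receptors lie at or above 0, and transcription factors fall on either side.

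Between genotypes none of these genes passed. In stroma 39 of 51 had a difference above 0 (54.5% of all genes did), with a median of 0.48 against 0.08 over all genes. The smallest p belonged to Efnb2 (-1.69 ± 0.41, limma adjusted p = 0.12) and Gata2 (-0.99 ± 0.28, limma adjusted p = 0.12), both lower in EP2-/- stroma. Without EP2+/+ stroma 65 and 82 the median of the list was 0.20 against 0.02 over all genes. In tumor 28 of 45 lay above 0, with a median of 0.14.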

How the data were processed

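RNA from tumor and stroma was measured on one-colour Cy3 arrays (59305 spots that are no controls of 62976); 200 ng was labelled and integrity was above 7, per the labels' protocols. The submitters' processing notes name Agilent Feature Extraction 10.7.3.1. Per the file headers, the scanner tables give processed signal as a linear intensity. The authors' deposited series matrix gives log2 values; set against the scanner values, it is scaled to each array's 75th percentile and centred per probe on the tissue median (column medians -0.31 to 0.56), and it served as an alternative within tissues.

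Outlier spots (58 to 483 per array) were dropped, spots of a probe averaged, and log2 values taken relative to each array's 75th percentile (403 to 1133). Which spots enter that percentile had not been fixed. It was chosen after results were seen, from 3 versions run in turn, because averaged non-control probes, outlier spots included, came closest to the series matrix: 99.5% of stroma and 98.7% of tumor values lay within 0.01, against 99.5% and 91.3% without outlier spots and 21.3% and 21.0% over single spots. The choice moved Vegfd in EP2-/- hosts from called (single spots) to not called, and both other versions are kept as alternatives.

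Of 56605 probes 32994 matched a RefSeq symbol (GRCm38.p6). Genes with signal well above background in 8 or more arrays of a fit and at most 2 missing values were tested with limma 3.58.1 (statmod 1.5.0, data.table version 1.17.8, R 4.3.3), with 1 mean per group and sex label: 16 arrays for genotype within a tissue, all 32 otherwise. The number of arrays limits the precision. The fit was tested on simulated data. Correlations used 100000 permutations. Python 3.11.15, numpy 2.4.6, pandas 2.3.3, matplotlib 3.10.9 and Biopython 1.88 were used.

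The members and lists were chosen with earlier results of these data known. Also named are, by rule, up to 4 pathway genes per direction with the smallest p among those that passed, or 2 where none did, and the 3 genes most like each member. Up to 2 markers per list could be named and none were. The gene copies of Ccl21a, the motifs, the promoters shown, the relations to marker lists, the use of median spot signals for normexp (offset 50) where means had been planned, the other percentiles and the fit without tumor arrays of mismatched sex label were chosen after seeing the data.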

Additional observations from a re-analysis of the deposited data

Results flagged for a closer look

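In 7 of 32 combinations of gene and group, a single array lay far from the other 7 by Dixon's criterion at the 95% level, which chance alone meets in about 1 in 20. In EP2+/+ stroma, Lyve1 was lowest on array 82 at -5.33, not well above background, with the next array at -1.15. Pdpn was lowest on array 9 at 2.17 (next 4.89), the array whose omission brought Lyve1 and Pdpn past the threshold between genotypes. Vegfd was lowest on array 5 at 1.61 (next 2.57). In EP2-/- stroma, Ccl21a was lowest on array 95 at 0.08 (next 2.46). In EP2+/+ tumor, Prox1 was highest on array 5 at -1.71 (next -6.02), where it was well above background; this array also had the highest share of probes well above background (75.1%) and the most outlier spots (483). Flt4 was highest on the same array at -4.13 (next -5.88), and in EP2-/- tumor Prox1 was highest on array 99 at -5.38 (next -6.64), both of them not well above background.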

How the results depend on the processing

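Over alternatives that left out no single array, 595 gene results kept their direction and their side of the threshold, 16 passed it newly, 8 lost it and 14 changed sign. Lyve1, Ccl21a and Prox1 over all hosts and Pdpn over all hosts kept their call wherever they were tested, Prox1 against tumor values mostly at background. With a filter that asks for signal on all arrays, which left 4 lymphatic genes tested, 2 were called in each stroma to tumor comparison, over all hosts and in either genotype. The calls over all genes under this filter are given below, and the count of 2 is not read as a result about the lymphatic genes. Without the stroma arrays of mismatched sex label, 1 was called between genotypes in stroma. Sign changes concerned differences that were not called. For Vegfc between genotypes in stroma the value was -0.023 with normexp, -0.004 with quantile scaling and -0.161 without EP2+/+ stroma 65 and 82, and for Pdpn it was 0.106 without those arrays. In the genotype by tissue test Vegfc was 0.013 with the percentile of bright probes, 0.08 with the mean of all probes and 0.092 with slide as a fixed block, Pdpn was 0.295 with that block and 0.273 without arrays 65 and 82, and Ccl21a was -0.029 with quantile scaling, -0.778 with the slide block and -1.303 without those arrays. Vegfd in EP2+/+ hosts was -0.012 with the slide block. Of called results, Vegfc over all hosts was lost with no filter (adjusted p = 0.0579) and without all arrays of mismatched sex label (0.0826), Ccbe1 in EP2+/+ hosts with the percentile of bright probes (0.0564), with no filter (0.0552) and without all arrays of mismatched sex label (0.11), and Pdpn in EP2+/+ hosts with normexp (0.0767). The cause was not tested.

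Leaving out each array in turn gave 0 to 2 lymphatic genes called between genotypes in stroma, 0 to 0 in tumor and 0 to 1 for genotype by tissue, 4 to 5 for stroma against tumor over all hosts, 3 to 5 in EP2+/+ and 4 to 5 in EP2-/- hosts. The ranges that crossed 0 were -0.137 to 0.193 for Vegfc between genotypes in stroma, -0.074 to 0.219 for Vegfd in EP2+/+ hosts, and, for genotype by tissue, -0.295 to 0.035 for Vegfc and -0.57 to 0.599 for Ccl21a.

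Stroma and tumor arrays share numbers, and the labels do not say whether a number marks 1 animal. Over 15 pairs the correlation of deviations ran from -0.045 to 0.339, 9 exceeded 0.1 and 5 arrays correlated best with their own number, so pairing is neither shown for every pair nor shown to be absent. Sex-linked genes of EP2+/+ number 9, labelled male, had a female pattern in stroma and a male one in tumor, so the tissues differ there. EP2-/- numbers 95 and 99, labelled male, had a female pattern in both tissues. With the number as a replicate block, 4 lymphatic genes were called over all hosts, 5 in EP2+/+ and 4 in EP2-/- hosts, against 5, 4 and 4 without it. The fit without the block called 62.8%, 30.2% and 59.4% of all genes. Neither these counts nor those with single arrays left out are read as a result about the lymphatic genes. With the block, Vegfc over all hosts was no longer called (0.415, limma adjusted p = 0.0924), Prox1 in EP2+/+ hosts was (adjusted p = 0.0498), and Ccl21a for genotype by tissue was -0.087.

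Counts over all genes moved by more than 1.5 times as follows. Between genotypes in stroma 0 genes passed with all arrays, 5518 without the stroma arrays of mismatched sex label, 5123 without EP2+/+ stroma 4, 8335 without EP2+/+ stroma 9, 8 without EP2-/- stroma 12 and 4338 with all 32 arrays in 1 fit. For genotype by tissue 0 became 4270 without stroma arrays, and 2137 without all arrays, of mismatched sex label, 2511 without EP2+/+ stroma 4, 5283 without EP2+/+ stroma 9, 981 without EP2-/- stroma 12 and 1 without EP2+/+ tumor 45. With signal required on all arrays, fewer genes were tested and 17027 calls became 10905 over all hosts, 8177 became 5286 in EP2+/+ and 16091 became 10375 in EP2-/- hosts. In EP2+/+ hosts 12883 passed without stroma arrays 65 and 82 and 5433 without all arrays of mismatched sex label. The percentile of bright probes moved the median of all genes from -0.14 to -0.02 over all hosts, from -0.06 to 0.14 in EP2-/- hosts and from 0.09 to 0.25 for genotype by tissue, and quantile scaling moved the last to -0.04. Signal over background limits Flt4 throughout and Prox1 in tumor.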
